A study of Mus musculus with 3 samples.

Results

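CD8 T cells are the cytotoxic arm of the T cell compartment, and 380 of them were found among 32215 leukocytes from mouse hearts. They came from 3 droplet libraries, 1 each of the groups labelled Sham, MI and MI-E, with 271, 35 and 74 CD8 T cells respectively. All hearts were from C57BL/6J mice 8 to 9 weeks old, and the cells were sorted on the pan-leukocyte surface protein CD45 before 3′ single-cell library preparation. By its name Sham is the operated control, and MI is myocardial infarction, here by ligation of the left anterior descending coronary artery. MI-E is not expanded in the labels. The surgical description is worded identically for all 3 libraries, Sham included, so what distinguishes the groups is known only from their names, and the time after surgery and the number of hearts per library are not given. No group had a second library: every difference below is between 2 libraries, has no replicate check and carries no test. The intervals are exact 95% intervals, Poisson for counts and Clopper-Pearson for shares, and cover counting error only.

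A CD8 T cell recognises peptides on MHC class I molecules through its T cell receptor and the CD8 coreceptor. Naive CD8 T cells recirculate through lymph nodes with the help of the chemokine receptor CCR7; after activation they divide, lose this homing receptor, and turn on granzymes, the chemokine CCL5 and receptors for inflamed tissue. Memory cells keep part of the effector programme, and in the mouse the Ly6C antigen marks activated and memory CD8 T cells. In the infarcted heart CD8 T cells are known as a minority among the recruited leukocytes, most of which are myeloid.

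Membership was decided on raw transcript counts (unique molecular identifiers, UMIs). A member had at least 200 detected genes and at most 10% mitochondrial UMIs, at least 2 UMIs of the CD3 genes Cd3d, Cd3e and Cd3g together and at least 1 of Cd8a and Cd8b1. It had no UMI of Cd4, of the gamma-delta receptor genes Trdc and Tcrg-C1 or of the B cell gene Cd79a, and at most 3 UMIs of the complement genes C1qa, C1qb and C1qc, which are abundant in macrophages. The members were thus chosen by the measured levels of these genes, which are given as a description. Cd8b1, the beta chain of the coreceptor (GRCm38, chr6:71322788-71337494), had a UMI in 92.3% of the Sham members, 97.1% of the MI members and 85.1% of the MI-E members, and Cd8a (chr6:71373427-71379173) in 43.2%, 65.7% and 56.8%. At the edge of the rule, 16 Sham, 1 MI and 4 MI-E members had exactly 2 CD3 UMIs, while 9, 1 and 4 cells with exactly 1 CD3 UMI lay just outside. A single CD8 UMI carried 87 of the Sham, 8 of the MI and 28 of the MI-E members. The T cell receptor constant genes Trac, Trbc1 and Trbc2, which the rule did not use, had at least 1 UMI in 98.2%, 100% and 98.6% of Sham, MI and MI-E members. Foxp3, the regulatory T cell factor, and Ncr1, which defines NK cells, had no UMI in the CD8 T cells of any library. Other markers of those cells were not all absent. A set of 6 CD4 and regulatory T cell markers had 7, 9 and 10 UMIs together in Sham, MI and MI-E, and NK markers are given below. Genes outside the rule thus marked the members as T cells in all 3 libraries. Their CD8 identity rests on the genes of the rule itself.

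Depth differed between libraries. After filtering, 11105 Sham, 8831 MI and 12279 MI-E cells were kept, and the CD8 T cells had a median of 4188, 5464 and 4276 UMIs and of 1267, 1554 and 1331.5 genes. Summed over members, 1 UMI stood for 0.825, 3.61 and 2.80 counts per 1000000 (CPM) in Sham, MI and MI-E, so low genes were read most coarsely in MI. No CD8 T cell barcode was shared between libraries. Some members carried transcripts of another lineage: 11 Sham, 6 MI and 5 MI-E cells had at least 0.5% of their UMIs in markers of B, myeloid or dendritic cells, red cells, platelets or stroma. Here these are called mixed cells, a threshold set after the values had been seen. Of the macrophage list UMIs in MI members, 86.8% lay in the 6 mixed cells, which held 129 to 385 each, whereas no other MI member held more than 37. The 14 macrophage genes came to 724, 6755 and 2794 CPM in Sham, MI and MI-E, and to 487, 1282 and 1857 CPM without the mixed cells. The 11 neutrophil genes came to 518, 32.5 and 1678 CPM, and to 17.9, 20.8 and 173 CPM without them. A single Sham cell held 11211 of the 11321 red cell and platelet UMIs. Because of these cells, list counts were also made without them.

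CD8 T cells were scarcer in both MI and MI-E than in Sham. They were 2.44% of Sham cells (2.16 to 2.74), 0.396% in MI (0.276 to 0.551) and 0.603% in MI-E (0.474 to 0.756). The share in MI was 6.16-fold lower than in Sham (4.32 to 9.03) and 7.13-fold lower without the mixed cells (4.85 to 10.9). In MI-E it was 4.05-fold lower than in Sham (3.12 to 5.31). Set against MI, MI-E held 1.52 times the MI share (1.00 to 2.34), or 1.71 times without the mixed cells (1.09 to 2.74). These are shares of sorted leukocytes: monocytes and macrophages, taken as cells with at least 5 C1q UMIs, no CD3 and no Cd79a, were 4434 of the Sham cells and 5826 of the MI cells, and the number of CD8 T cells per heart was not measured. CD4 T cells, by the same rule with Cd4 in place of CD8, numbered 71, 9 and 28, and their share was 6.27-fold lower in MI than Sham (3.13 to 14.3). NK cells, with at least 2 UMIs of Ncr1 and Klrb1c and no CD3, numbered 144, 25 and 43, with a share 4.58-fold lower in MI (2.98 to 7.31). Within the CD8 and CD4 T cells, the CD8 fraction was 79.2% in Sham (74.5 to 83.4), 79.5% in MI (64.7 to 90.2) and 72.5% in MI-E (62.8 to 80.9), with intervals that overlap. T cells without a UMI of either coreceptor, 337, 26 and 106 by library, lay outside the rule, so CD8 T cells with an undetected coreceptor are missing from these numbers.

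**Figure D1:**
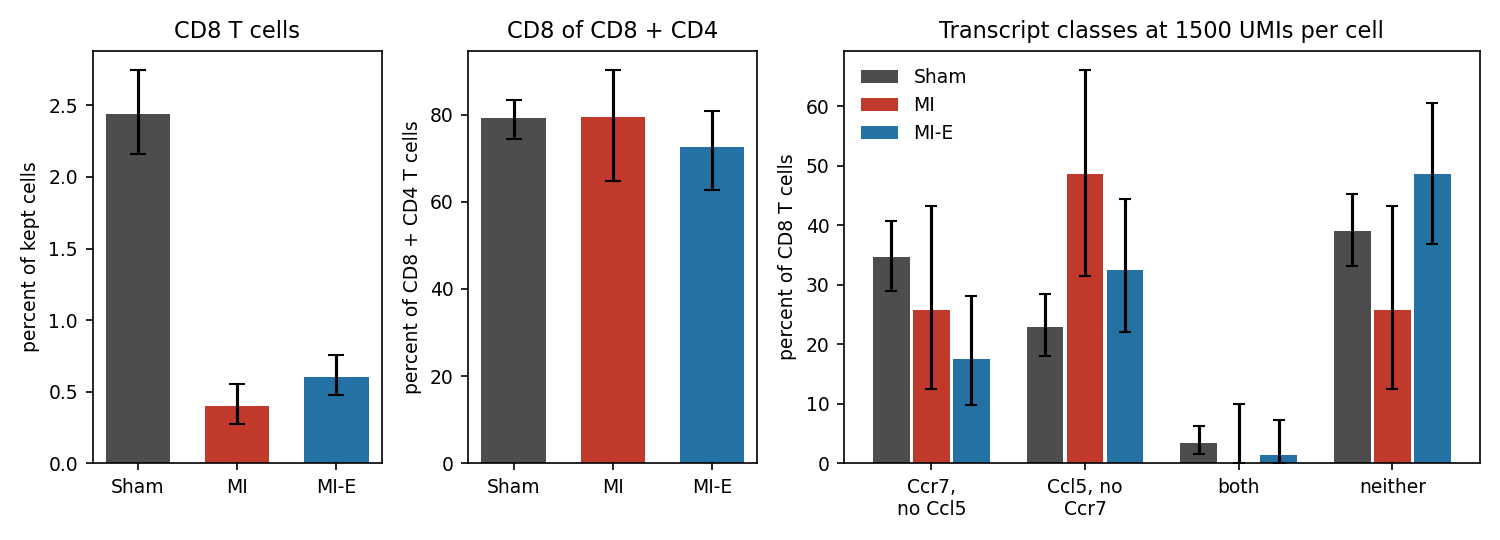
Left and centre, CD8 T cells as a percentage of kept cells and of CD8 plus CD4 T cells in each library; right, the percentage of CD8 T cells with a UMI of Ccr7, of Ccl5, of both or of neither, after thinning to 1500 UMIs per cell. Bars are single libraries and whiskers exact 95% Clopper-Pearson intervals; the CD8 share goes from 2.44% in Sham to 0.396% in MI, while the Ccl5 class stands at 22.9% in Sham and 48.6% in MI.

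The composition of the CD8 T cells was read from genes outside the rule. Each cell was thinned to 1500 UMIs, which left out 5 shallower Sham cells, and sorted by Ccr7, the lymph node homing receptor, and by Ccl5, a chemokine of antigen-experienced CD8 T cells. Cells with Ccr7 but no Ccl5 were 34.6% in Sham (92 of 266, 28.9 to 40.6), 25.7% in MI (9 of 35, 12.5 to 43.3) and 17.6% in MI-E (13 of 74, 9.70 to 28.2). The Ccr7 intervals of Sham and MI-E do not overlap, and that of MI overlaps both. Cells with Ccl5 but no Ccr7 were 22.9% in Sham (18 to 28.5), 48.6% in MI (31.4 to 66.0) and 32.4% in MI-E (22 to 44.3). The Ccl5 intervals of Sham and MI do not overlap, and that of MI-E overlaps both. Cells with both were 3.38% in Sham, 0 of 35 in MI and 1.35% in MI-E, and cells with neither 39.1%, 25.7% and 48.6%. Depth moves these classes: without thinning the Ccr7 class was 53.1%, 42.9% and 33.8%, and the Ccl5 class 21.0%, 40% and 28.4%. As a background for free transcripts, a Ccl5 UMI was seen in 1.67%, 0 of 30 and 1.18% of B cells in Sham, MI and MI-E, against 26.3%, 48.6% and 33.8% of CD8 T cells at the same depth. A Ccr7 UMI was seen in 0.592%, 0.484% and 0.590% of monocytes and macrophages, against 38%, 25.7% and 18.9% of CD8 T cells.

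For gene levels, UMIs were summed over the CD8 T cells of a library and scaled to CPM. Where 3 levels are given without a library, they are CPM in Sham, MI and MI-E in that order. Of 32285 genes, 2232 had a mean of at least 50 CPM over the 3 libraries and are called measured. A gene is counted as higher or lower where the ratio of CPM + 10 reached 2-fold, and log2 values and medians below are of that ratio, while folds are plain ratios of CPM. MI stood 2-fold above Sham for 359 measured genes (16.1%) and 2-fold below for 68 (3.05%). MI-E stood above MI for 84 (3.76%) and below it for 106 (4.75%), and above Sham for 210 (9.41%) and below it for 30 (1.34%). With mixed cells left out, 2184 genes were measured. The counts were then 317 (14.5%) above and 61 (2.79%) below for MI against Sham, 77 (3.53%) and 122 (5.59%) for MI-E against MI, and 168 (7.69%) and 25 (1.14%) for MI-E against Sham. Without the cycling cells described below, 12.4% of the 2232 genes were above and 5.2% below for MI against Sham, 6.14% and 4.88% for MI-E against MI, and 8.47% and 1.34% for MI-E against Sham. The median over all measured genes was 0.23 for MI over Sham, -0.04 for MI-E over MI and 0.19 for MI-E over Sham, and 0.05, 0.04 and 0.16 without the cycling cells. Scaling by TMM factors, which assume that most genes do not differ, moved these medians to -0.10, -0.00 and -0.09. It also moved the split of the calls: 84.1% of the MI and Sham calls were higher in MI by CPM and 52.5% by TMM (203 higher and 184 lower), and 87.5% against 68.9% for MI-E and Sham. List medians are therefore best read against these values.

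Some naive and recirculation genes, Ccr7, Klf2, Lef1 and Dapl1, were lower in MI. Of 15 listed, 12 were measured: these 4 were at least 2-fold lower in MI than Sham and none higher, with a median of -0.88, against 3.05% of all measured genes lower. Ccr7, the lymph node homing receptor (chr11:99144196-99155077), stood at 434, 144 and 162 CPM in Sham, MI and MI-E. It was 3.0-fold lower in MI than Sham (2.18 to 4.25), and for MI-E the drop from Sham was 2.68-fold (2.04 to 3.57). Klf2, the transcription factor that keeps T cells quiescent and recirculating (chr8:72319033-72321656), stood at 1027, 419 and 901 CPM. Klf2 was lowest in MI: the level there was 2.45-fold lower than in Sham (2.03 to 2.99), and the MI-E level was 2.15-fold that of MI (1.73 to 2.68). Lef1, a transcription factor of naive T cells, stood at 273, 126 and 148 CPM, and Dapl1, a gene of naive CD8 T cells, at 104, 39.7 and 112 CPM. Members within 2-fold included Il7r and S1pr1. The interleukin-7 receptor gene Il7r stood at 307, 206 and 235 CPM, with 357 CPM in MI without the cycling cells, and S1pr1, which guides exit from lymph nodes, at 253, 152 and 224 CPM. Igfbp4, an insulin-like growth factor binding protein, was highest in MI-E: it stood at 77.6, 83.1 and 207 CPM. Without the mixed cells 2 members were at least 2-fold lower in MI and the median was -0.80; without the cycling cells it was -0.52, with 0 members past 2-fold. By TMM 9 members were lower. For MI-E over Sham the median was -0.36, with 1 member higher and 1 lower (1.34% of all measured genes were lower).

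Among cytotoxic and effector genes, Gzmb, Gzmk and Nkg7 were at least 2-fold higher in both MI and MI-E than in Sham, and Ccl5 was lower in MI. Of 22 listed genes, 10 were measured; 5 were higher and 1 lower in MI than Sham (median 0.99), and 6 were higher in MI-E than Sham (median 1.19), against 16.1% and 9.41% of all measured genes. Gzmb encodes granzyme B, the serine protease of cytotoxic granules (chr14:56258838-56262260), and stood at 124, 480.4 and 383 CPM in Sham, MI and MI-E. That was 3.88-fold higher in MI than Sham (3.05 to 4.94) and 3.10-fold in MI-E (2.44 to 3.93). At equal depth a Gzmb UMI was seen in 9.77%, 25.7% and 17.6% of CD8 T cells in Sham, MI and MI-E, and in 0.252%, 0 of 30 and 0.592% of B cells. Gzma, granzyme A, stood at 565, 1232 and 937 CPM, and Gzmk, granzyme K, at 23.9, 119 and 72.7 CPM. Single cells carried much of Gzma: 1 cell held 104 of 685 UMIs in Sham, 163 of 341 in MI and 141 of 335 in MI-E. Nkg7, a cytotoxic granule membrane protein, stood at 453, 1142 and 973 CPM. Ccl5 (chr11:83525778-83530518) stood at 3678, 1672 and 4936 CPM. It was 2.2-fold lower in MI than Sham (2.00 to 2.43) although a larger share of MI cells had it, and in MI-E it was 2.95-fold the MI level (2.66 to 3.28). The macrophage inflammatory proteins Ccl4 and Ccl3 were high in MI-E. Ccl4 stood at 95.7, 184 and 939.7 CPM, but 1 MI-E cell held 163 of 336 UMIs, and without the mixed cells MI-E was 2.82-fold over MI (1.81 to 4.54). Ccl3 stood at 13.2, 21.7 and 327 CPM, or at 15.6 in MI and 42.4 in MI-E without the mixed cells. The MI-E values for Ccl4 and Ccl3 outside mixed cells were 28.5% and 9.61% of those in monocytes and macrophages of that library; macrophage genes such as Lyz2 and Spp1 stood at 3.73% and 3.46%.

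The cytotoxic counts depended on which cells were summed. With mixed cells left out, 6 members were higher in MI than Sham and none lower (median 1.54), and 4 were higher and 1 lower in MI-E (median 0.77). Among them Zeb2, an effector transcription factor that macrophages also express, went from a MI over Sham log2 ratio of 2.31 to 0.73. Without the 10 cycling MI cells 2 members were higher and 3 lower. In that comparison the log2 ratio of Gzmb was -1.31 and that of Gzma -1.14, so the granzyme A and B excess in MI lay in the cycling cells. The 9 NK cell markers, of which Tyrobp and Fcer1g are macrophage markers too, stood at 230.2, 1990.4 and 643 CPM, at 133, 343 and 242 CPM without the mixed cells, with Ncr1 at 0 in all libraries and Klra8 and Klra4 at 0 in MI and MI-E, and their part in the cytotoxic list was not tested. In MI-E, Gzmb kept a log2 ratio to Sham of 1.33 without its 3 cycling cells. Perforin, interferon gamma and tumour necrosis factor (Prf1, Ifng, Tnf) were under the 50 CPM limit. Ifng, close to it, stood at 27.2, 93.9 and 25.2 CPM in Sham, MI and MI-E, with 18 of its 26 MI UMIs in 1 cell.

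**Figure D2:**
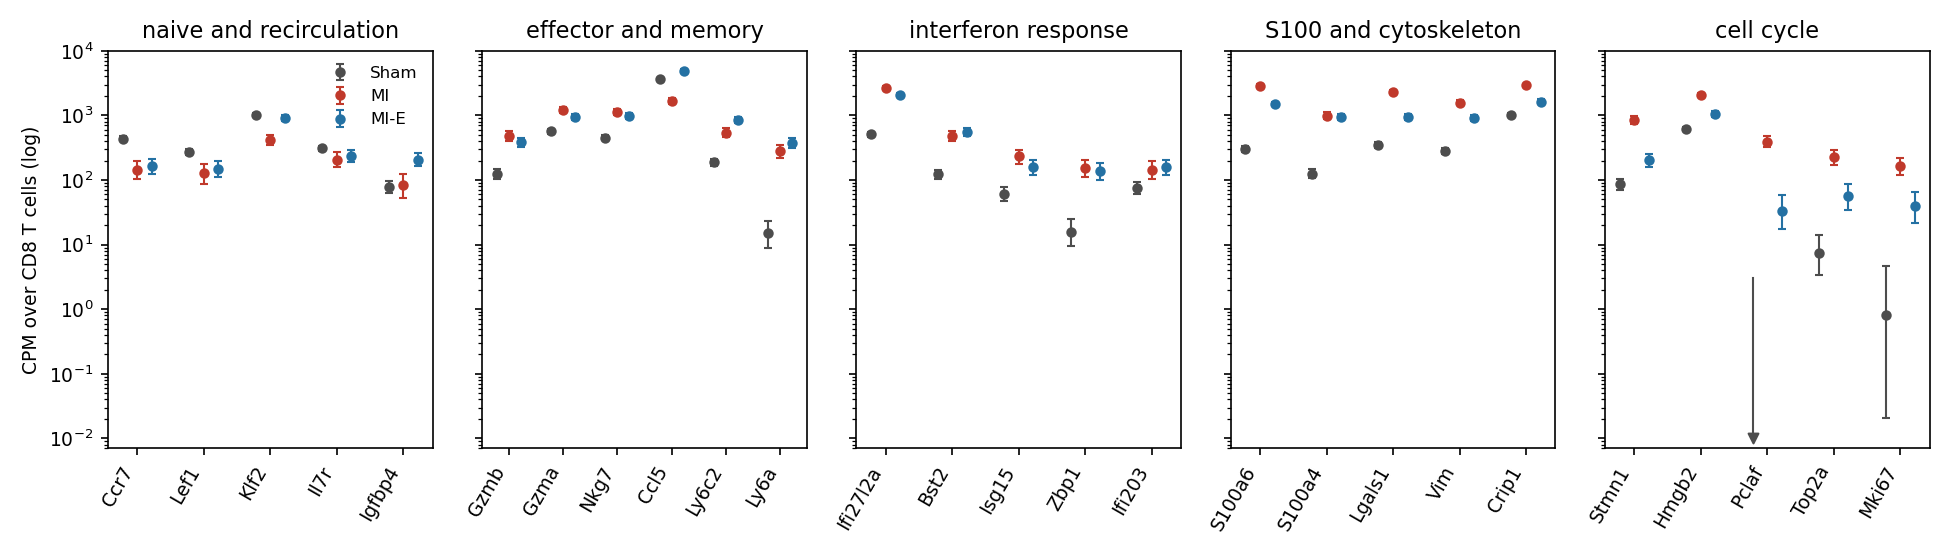
CPM over the CD8 T cells of each library on a log axis, for genes of 5 lists; points are single libraries and whiskers exact 95% Poisson intervals, and the arrow marks a library with 0 UMIs (Pclaf in Sham), with its upper limit. Lgals1, Vim, Crip1, Isg15, Hmgb2 and Stmn1 were chosen for the plot after their values were seen. Ccr7 stands at 434 CPM in Sham and 144 in MI, and S100a6 at 304, 2889.8 and 1496 CPM in Sham, MI and MI-E.

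Among 14 memory genes 10 were measured, of which 4 were higher in MI than Sham (median 0.70) and 4 higher in MI-E than Sham (median 0.64), against 16.1% and 9.41% of all measured genes. With the cycling cells left out, 3 were higher and 1 lower in MI (median 0.20). Ly6c2, the Ly6C antigen of activated and memory CD8 T cells (chr15:75108158-75111970), stood at 186, 542 and 853 CPM in Sham, MI and MI-E. It was 2.91-fold higher in MI (2.35 to 3.59) and 4.57-fold higher in MI-E (3.84 to 5.46) than in Sham. Ly6a, the interferon-inducible Sca-1 antigen, stood at 14.9, 278 and 375 CPM, 18.7-fold higher in MI (11.1 to 33.3) and 25.2-fold in MI-E (15.4 to 43.9). At equal depth 1.5%, 28.6% and 27.0% of CD8 T cells in Sham, MI and MI-E had a Ly6a UMI, against 14.5%, 26.7% and 34.9% of B cells. Both kept their direction without the mixed cells, with Ly6a at 15.2, 337 and 300.3 CPM. Cd44, the hyaluronan receptor of activated T cells, stood at 40.4, 130.0 and 131 CPM. Its MI level without the mixed cells was 0.908-fold that of Sham (0.276 to 2.35) and its MI-E level 4.34-fold (2.64 to 7.18). Itgb1, the beta-1 integrin chain, stood at 90.8, 213 and 151 CPM, and Itgal, the alpha chain of LFA-1, at 44.6, 57.8 and 112 CPM. In each comparison with Sham 6 of the 10 measured members were within 2-fold. Among these Il2rb stood at 196, 210 and 227 CPM, and Klrd1 at 175, 152 and 112 CPM. Klrd1 was 1.56-fold lower in MI-E than Sham (1.11 to 2.25).

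Of 12 tissue residency genes 6 were measured, and Cxcr6, a chemokine receptor of tissue-lodged T cells, was the only one past 2-fold, in MI and in MI-E over Sham, which is 1 of 6 against 16.1% and 9.41% of all measured genes. Cxcr6 stood at 19.8, 72.2 and 157 CPM in Sham, MI and MI-E, but 1 MI-E cell held 27 of its 56 UMIs. The integrins of residency, Itgae and Itga1, were under the 50 CPM limit. Cd69, an early activation antigen that holds T cells in tissue, stood at 105, 159 and 215 CPM, and Runx3, the transcription factor of the CD8 lineage, at 146, 278 and 187 CPM. Runx3 in MI and Cd69 in MI-E also passed without the mixed cells, with log2 ratios to Sham of 1.16 and 1.02. In MI no member passed once the cycling cells were left out, and Cxcr6 had a log2 ratio of 0.23. Of 14 checkpoint and exhaustion genes only Icos and Nr4a2 were measured. Icos, an inducible costimulator, stood at 69.3, 123 and 193 CPM, 2.78-fold higher in MI-E than Sham (2.00 to 3.87), and Nr4a2, an activation-induced nuclear receptor, at 83.3, 83.1 and 72.7 CPM. Pdcd1, the gene of PD-1, was under the limit and stood at 4.95, 101 and 14 CPM, with 16 of its 28 MI UMIs in 1 cell. Ctla4, the inhibitory receptor CTLA-4, was also under it, at 9.90, 86.7 and 44.7 CPM. With mixed cells left out, both passed the limit, at 5.36, 129.7 and 16.3 CPM for Pdcd1 and 9.82, 119 and 49.0 CPM for Ctla4. Both passed it only through their MI level, so their being higher in MI follows from the limit. With them, 3 of 4 measured members were higher in MI than Sham, against 14.5% of all measured genes, and this count is a description. Of the MI UMIs, 25 of 28 for Pdcd1 and 20 of 24 for Ctla4 lay in the 10 cycling cells, without which the MI levels were 18.8 and 25 CPM and neither was 2-fold over Sham (log2 ratios of 0.94 and 0.82). The inhibitory receptors Lag3, Havcr2 and Tigit and the exhaustion factor Tox were under the limit in either case. Lag3 stood at 0.825, 10.8 and 0 CPM, Havcr2 at 4.95, 18.1 and 8.39 CPM, and Tigit at 0.825, 3.61 and 0 CPM. Tox stood at 11.6, 7.22 and 0 CPM. These values rest on at most 14 UMIs per gene and library, and differences in them were not tested.

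Of 12 receptors for migration 9 were measured. In MI 5 were higher than in Sham (median 1.05) and in MI-E 3 (median 0.34), against 16.1% and 9.41% of all measured genes. Between MI-E and MI, 1 was higher and 2 lower in MI-E, against 3.76% and 4.75%. Ccr2, the receptor for monocyte chemoattractants, stood at 13.2, 112 and 115 CPM in Sham, MI and MI-E, and without the mixed cells at 9.82, 46.7 and 121 CPM. Cxcr4, the receptor of stromal-derived CXCL12, stood at 22.3, 101 and 30.8 CPM: it was 4.54-fold higher in MI than Sham (2.58 to 8.00), and the MI-E level was 3.29-fold below that of MI (1.59 to 7.32). The integrin alpha-4 gene Itga4 had the same order, at 80.0, 206 and 92.3 CPM. S1pr4, a sphingosine phosphate receptor, stood at 87.5, 47.0 and 95.1 CPM, and the gut integrin chain Itgb7 at 123, 119 and 134 CPM. Without the cycling cells 3 members were higher and 1 lower in MI (median 0.23), and 2 were higher by TMM or with no C1q UMI allowed.

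A dividing subset stood out among the MI cells. Cells with at least 10 UMIs over 10 cell cycle genes, a threshold set after the values had been seen, were 10 of 35 in MI (28.6%, 14.6 to 46.3), 3 of 74 in MI-E (4.05%, 0.844 to 11.4) and 0 of 271 in Sham, which allows a share of up to 1.35%. At 1500 UMIs per cell, cells with at least 3 such UMIs were 9 of 35, 3 of 74 and 0 of 266. The 10 MI cells held 12 to 107 cycle UMIs with a median of 44, and no other MI cell held more than 1. All 10 had Ccl5 and Gzmb UMIs, 6 had Gzma, and 0 had Ccr7; among the other 25 MI cells 9 had Ccl5, 4 Gzmb and 20 Ccr7. The cycling cells were deeper, with a median of 8603 UMIs against 4203, and held 16 to 33 CD3 UMIs each against a median of 7 in the rest. None was a mixed cell and none was marked by the doublet caller. They carried 9 to 37 macrophage list UMIs each. The result leans on the C1q limit: with no C1q UMI allowed, 2 of 15 cells were cycling in MI (13.3%) and 0 of 41 in MI-E. Without the mixed cells the MI share was 10 of 29. By the same threshold 1 of 71, 4 of 9 and 3 of 28 CD4 T cells were cycling in Sham, MI and MI-E, and 2 of 144, 1 of 25 and 5 of 43 NK cells.

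**Figure D3:**
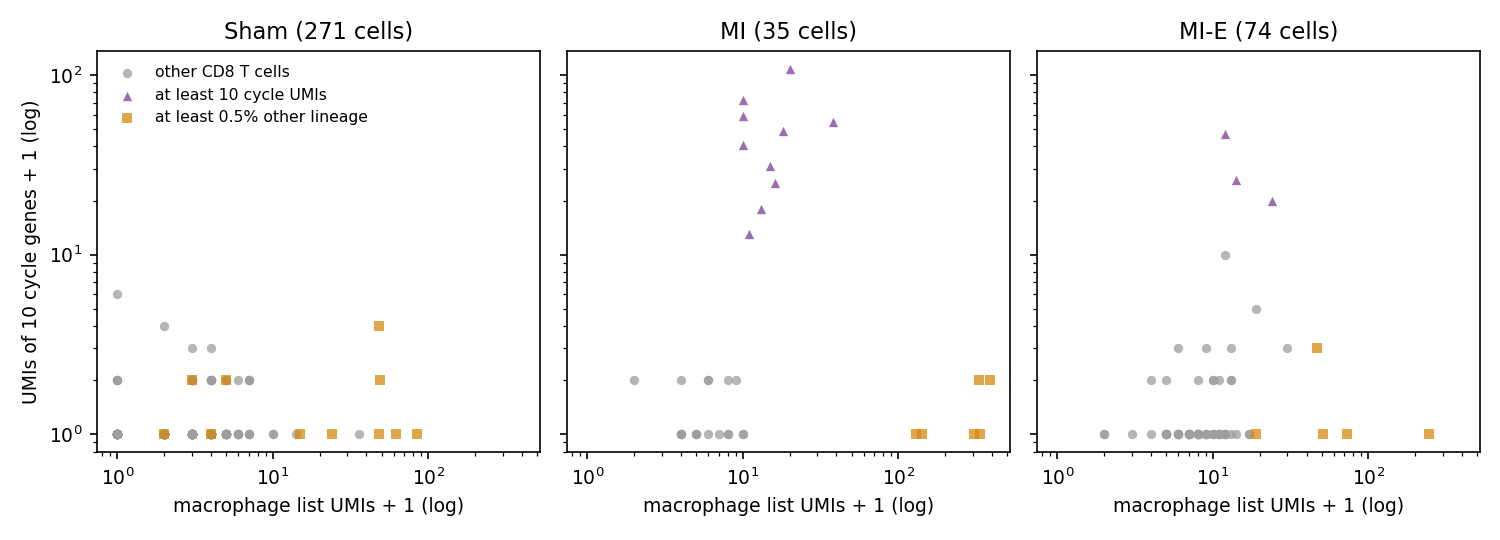
Each point is 1 CD8 T cell, placed by its UMIs of the 14-gene macrophage list (x, log axis, plus 1) and of 10 cell cycle genes (y, log axis, plus 1), in 1 panel per library. The 10 cycling MI cells hold 9 to 37 macrophage UMIs and the 6 mixed MI cells 129 to 385, and no MI cell belongs to both.

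Cell cycle genes followed those cells. Of 20 listed 14 were measured. In MI 12 were higher than in Sham (median 2.84) and in MI-E 7 (median 0.93), against 16.1% and 9.41% of all measured genes. Between MI-E and MI, 9 were lower in MI-E (median -1.76), against 4.75%. Pclaf, a PCNA-binding factor of DNA replication, stood at 0, 394 and 33.6 CPM in Sham, MI and MI-E, so MI was at least 159-fold higher than Sham and MI-E at least 13.6-fold, taking 3 counts as the limit of the Sham library. Mki67, the gene of the Ki-67 antigen (chr7:135689784-135716361), stood at 0.825, 163 and 39.2 CPM. Birc5, the mitotic protein survivin, stood at 4.95, 275 and 44.7 CPM. Pcna, the replication clamp, and H2afz, a histone variant, had the lowest ratios of the list, with 144, 231 and 145 CPM for Pcna and 918, 1676 and 906 CPM for H2afz. Within MI, Mki67 stood at 367 CPM in the 10 cycling cells and 12.5 CPM in the other 25, and Top2a, topoisomerase II, at 521 and 6.26 CPM. The 10 cells held 86.6% of the cell cycle list UMIs of MI. Since cycle genes chose them, this is a description. Genes outside the choice also differed between them and the rest of MI: Gzmb stood at 1076 and 43.8 CPM, Gzma at 2570.0 and 250.4, and Klf2 at 188 and 589. Without the cycling cells the list median for MI over Sham was -0.05, with 1 member past 2-fold, and for MI-E over Sham 0.25, with 2. With no C1q UMI allowed, 7 members were higher in MI. TTTGAA, the core of the cell cycle homology region, on either strand, was found in the promoter windows (250 bases before to 50 after the start) of 6 of 17 listed genes with a RefSeq window (35.3%: Mki67, Top2a, Ube2c, Cks1b, Cdk1 and Hmgb2), against 20.2% of 27025 genes. The share was not particular to this list. In the other lists it ran from 6.25% (glycolysis and hypoxia) to 40% (checkpoint and exhaustion), with 36.4% for T cell receptor signalling.

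Interferon response genes were higher in both MI and MI-E, at about equal levels. Type I interferons act through STAT and IRF factors on promoters that hold an interferon-stimulated response element. Of 20 listed genes 8 were measured. In MI 7 were higher than in Sham (median 1.65) and in MI-E 7 (median 1.84), against 16.1% and 9.41% of all measured genes. None was past 2-fold between MI-E and MI (median 0.09). Promoters of 3 genes are shown, from 250 bases before to 50 after the RefSeq start on GRCm38.p6, in the direction of transcription, with each match to a core of the response element in capitals. The core is GAAA followed after 2 bases of any kind by GAAA, searched on both strands. They were chosen because the gene was measured and the window holds the motif; the Isg15 window is chr4:156200769-156201068, that of Bst2 chr8:71537423-71537722 and that of Ifi203 chr1:173942443-173942742, all on the minus strand. Ifi203 has another annotated window, without a match.
Isg15: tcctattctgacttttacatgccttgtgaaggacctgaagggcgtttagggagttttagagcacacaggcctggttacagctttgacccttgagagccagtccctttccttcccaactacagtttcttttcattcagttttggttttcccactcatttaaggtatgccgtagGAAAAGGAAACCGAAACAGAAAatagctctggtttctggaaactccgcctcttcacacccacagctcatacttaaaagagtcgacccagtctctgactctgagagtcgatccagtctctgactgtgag
Bst2: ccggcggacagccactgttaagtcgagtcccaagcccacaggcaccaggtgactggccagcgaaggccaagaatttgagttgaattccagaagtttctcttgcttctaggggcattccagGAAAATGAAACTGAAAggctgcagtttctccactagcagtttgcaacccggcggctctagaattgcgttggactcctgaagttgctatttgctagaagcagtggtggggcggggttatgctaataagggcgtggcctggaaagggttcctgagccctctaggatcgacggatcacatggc
Ifi203: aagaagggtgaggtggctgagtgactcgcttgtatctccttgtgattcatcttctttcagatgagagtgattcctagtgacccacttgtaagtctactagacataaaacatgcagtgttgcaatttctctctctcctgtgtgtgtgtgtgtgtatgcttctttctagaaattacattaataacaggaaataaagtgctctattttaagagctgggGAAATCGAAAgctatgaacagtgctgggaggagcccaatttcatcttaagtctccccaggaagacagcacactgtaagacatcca
The motif was found in 10 of the 15 listed genes with a window (66.7%), against 1079 of 27025 genes (3.99%). Among the measured members it was not in the windows of Irf7 and Slfn2, and windows of Zbp1 and Ifi27l2a were not used here. A match describes the letters of the window and is not a binding site.

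Isg15, the ubiquitin-like modifier with 3 matches in its window, stood at 61.1, 231 and 159 CPM in Sham, MI and MI-E. It was 3.79-fold higher in MI than Sham (2.67 to 5.36) and 2.61-fold in MI-E (1.82 to 3.74). Bst2, the antiviral membrane protein tetherin with 2 matches, stood at 122, 484 and 554 CPM, 3.96-fold higher in MI (3.11 to 5.04) and 4.53-fold in MI-E (3.65 to 5.65). Ifi203, an interferon-inducible DNA-sensing family member with 1 match, had the smallest ratio of the list, at 75.9, 144 and 157 CPM. The largest ratios belonged to Zbp1, a sensor of Z-form nucleic acids, at 15.7, 152 and 137 CPM, and in MI to Ifi27l2a (chr12:103442167-103443680), at 507, 2655 and 2075 CPM. For Ifi27l2a that was 5.24-fold in MI (4.70 to 5.84) and 4.10-fold in MI-E (3.68 to 4.57) over Sham. Without the mixed cells 7 and 6 members were higher in MI and MI-E than in Sham (medians 1.42 and 1.27), and without the cycling cells 7 and 7. By TMM 6 and 5 were higher.

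To gauge free RNA in the suspension, levels were set against those of the monocytes and macrophages with at least 5 C1q UMIs in the same library. Transcripts of monocytes with fewer C1q UMIs are not gauged by this. Outside mixed cells, the macrophage genes Lyz2, Apoe, Ctsb and Spp1 stood in MI CD8 T cells at 1.77%, 3.39%, 3.25% and 2.13% of their level in monocytes and macrophages. Isg15 stood at 50.9%, Bst2 at 54.6%, Ifi27l2a at 51.1% and Zbp1 at 176%. In MI-E the same macrophage genes stood at 3.73%, 4.28%, 5.20% and 3.46%, and the interferon genes at 18.1%, 63.1%, 49.4% and 57.7%. These interferon genes stood above the macrophage genes on this measure in both libraries. At equal depth Ifi27l2a was seen in 40.2%, 71.4% and 74.3% of CD8 T cells and in 39.8%, 76.7% and 83.4% of B cells in Sham, MI and MI-E, and was thus also higher in B cells of both MI and MI-E.

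**Figure D4:**
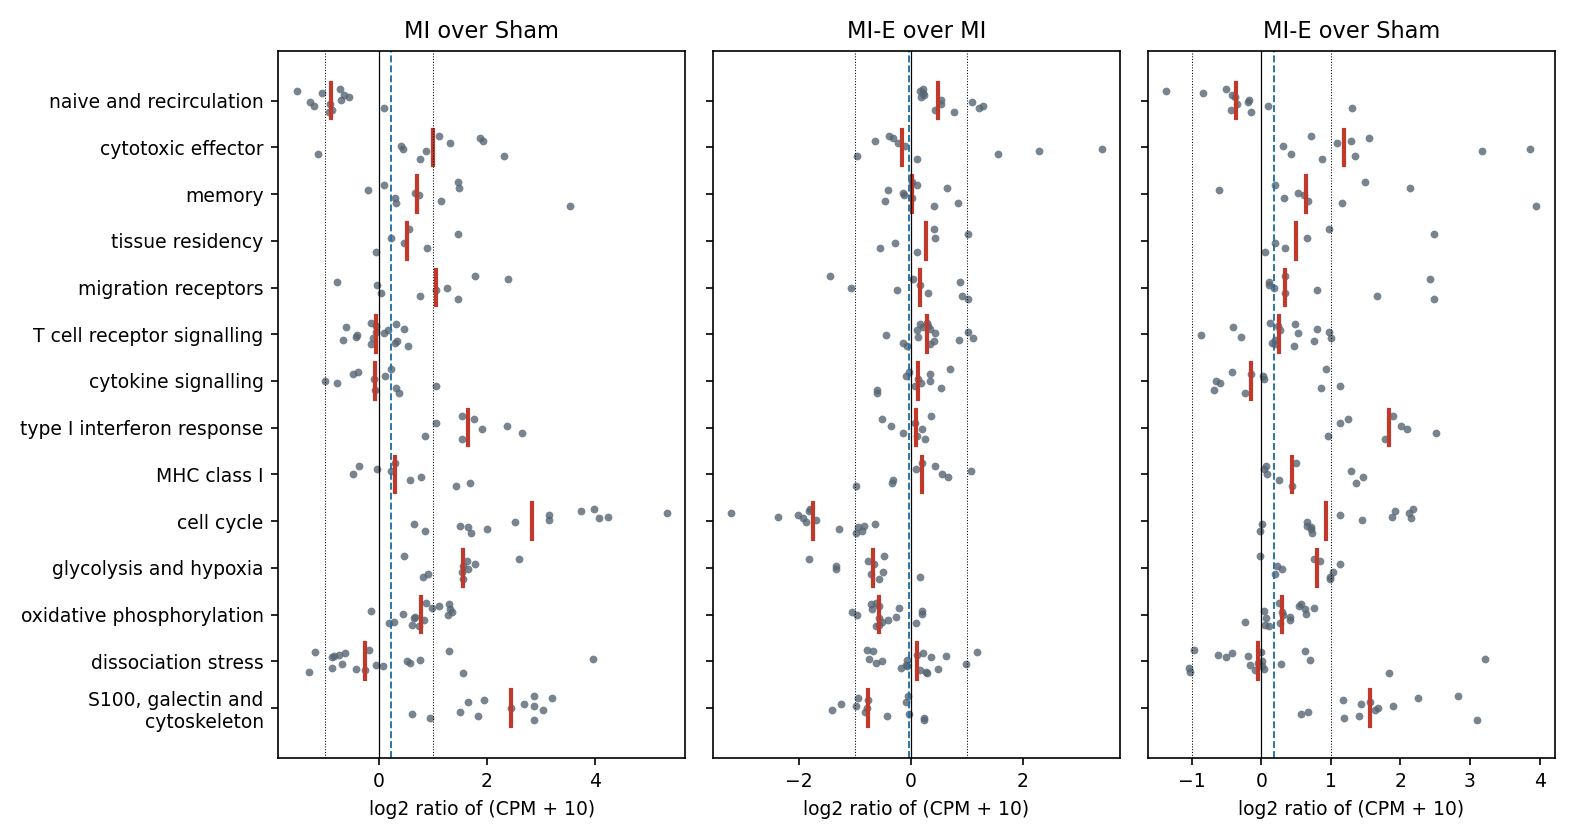
Each point is 1 measured gene of a list (rows) placed by its log2 ratio of CPM + 10 in 3 comparisons of single libraries; red bars are list medians, the blue dashed line is the median of all 2232 measured genes and dotted lines mark 2-fold. The cell cycle, S100 and interferon lists have the highest medians in MI over Sham, at 2.84, 2.46 and 1.65, and the naive list the lowest, at -0.88.

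S100, galectin and cytoskeleton genes, which activated and memory T cells share with myeloid cells, were higher in both MI and MI-E. Of 14 listed 13 were measured. In MI 11 were higher than in Sham (median 2.46) and in MI-E 11 (median 1.56), against 16.1% and 9.41% of all measured genes. Between MI-E and MI, 2 were lower in MI-E (median -0.76), against 4.75%. S100a6, a calcium-binding protein (chr3:90612882-90624181), stood at 304, 2889.8 and 1496 CPM in Sham, MI and MI-E, which was 9.49-fold higher in MI (8.38 to 10.8) and 4.91-fold in MI-E (4.30 to 5.63) than in Sham. In MI, 1 cell held 245 of its 800 UMIs. S100a6 was seen at equal depth in 16.5%, 54.3% and 51.4% of CD8 T cells and in 5.25%, 26.7% and 17.2% of B cells. Anxa2, a membrane-binding annexin, stood at 62.7, 589 and 215 CPM, S100a4, another calcium-binding protein, at 125, 986 and 956 CPM, and Capg, an actin-capping protein, at 23.1, 231 and 274 CPM. The scaffold protein gene Ahnak and the membrane protein gene Emp3 had the smallest MI ratios, at 127, 199 and 193 CPM for Ahnak and 196, 390.1 and 461 CPM for Emp3. Macrophage list levels moved the same way, at 724, 6755 and 2794 CPM, and their part was not tested. Without the mixed cells the list kept 11 members higher in MI and 11 in MI-E, with medians of 2.04 and 1.67, and S100a6 then stood at 121% of its monocyte and macrophage level in MI and 72.3% in MI-E. By TMM 11 and 9 were higher.

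Energy metabolism genes differed mainly in MI. Of 16 glycolysis and hypoxia genes 10 were measured. In MI 7 were higher than in Sham (median 1.56) and in MI-E 2 (median 0.81), against 16.1% and 9.41% of all measured genes. Between MI-E and MI, 3 were lower in MI-E (median -0.68), against 4.75%. Tpi1, triosephosphate isomerase, had the largest ratio and stood at 28.9, 224 and 55.9 CPM in Sham, MI and MI-E. Pgk1, phosphoglycerate kinase, stood at 73.4, 278 and 173 CPM, while Gpi1, glucose phosphate isomerase, at 167, 235 and 165 CPM, and Hif1a, the hypoxia-inducible factor, at 80.0, 148 and 168 CPM, had the smallest. In MI 5 of 9 were higher without the mixed cells and 8 of 10 without the cycling cells. Of 16 oxidative phosphorylation genes, all measured, 5 were higher in MI than Sham (median 0.78), against 16.1% of all measured genes, 0 in MI-E, and 1 was lower in MI-E than MI. Leaving out the cycling cells left 2 higher in MI (median 0.48). Uqcr11 and Uqcrq, subunits of respiratory complex III, had the largest ratios. Uqcr11 stood at 139, 368 and 173 CPM, and Uqcrq at 201, 517 and 316 CPM. By TMM 1 oxidative phosphorylation gene and 7 glycolysis genes were higher in MI.

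Of 20 T cell receptor and coreceptor signalling genes 16 were measured. None was past 2-fold between MI and Sham (median -0.06) or between MI-E and Sham (median 0.26). In MI-E 2 were higher than in MI, against 3.76% of all measured genes. Those 2 were Cd6, a costimulatory receptor, at 55.3, 50.6 and 120.3 CPM in Sham, MI and MI-E, and Zap70, the kinase next to the receptor, at 38, 36.1 and 83.9 CPM. Neither passed in MI-E over MI without the mixed cells, with log2 ratios of 0.83 and 0.79, and both passed in MI-E over Sham, with 1.13 and 1.05. The MI over Sham median was -0.58 without the cycling cells, with 1 of 16 lower, and 3 were higher in MI-E than MI. In MI over Sham, Thy1, the Thy-1 surface antigen, at 120.5, 181 and 171 CPM, and Lck, the coreceptor kinase, at 125, 177 and 227 CPM, had the highest ratios, and Cd27, a costimulatory receptor, at 91.6, 54.2 and 106 CPM, and Cd247, the CD3 zeta chain, at 121, 75.9 and 89.5 CPM, the lowest. Of 10 MHC class I genes 9 were measured, with 2 higher in MI (median 0.30) and 3 in MI-E (median 0.44) than in Sham, against 16.1% and 9.41% of all measured genes. In MI 3 passed without the mixed cells and 1 without the cycling cells. Psmb8, an immunoproteasome subunit, stood at 223, 744 and 587 CPM, and its partner Psmb9 at 84.2, 242 and 117 CPM, whereas the class I heavy chain genes H2-K1, at 2016, 1557 and 2112 CPM, and H2-T23, at 211, 148 and 224 CPM, had the lowest MI ratios. The class I genes form near-identical families, so their counts may be shared among copies. H2-Q7 was high in MI-E, at 368, 429.9 and 915 CPM, which was 2.13-fold over MI (1.72 to 2.65), or 1.84-fold without the mixed cells (1.47 to 2.33).

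Of 20 genes known to respond to tissue dissociation 19 were measured. In MI 3 were higher and 2 lower than in Sham (median -0.26), against 16.1% and 3.05% of all measured genes. In MI-E 2 were higher and 2 lower than in Sham (median -0.04), against 9.41% and 1.34%. Without the mixed cells 17 were measured, 0 higher and 3 lower in MI (median -0.42), and without the cycling cells 5 were higher and 2 lower. Ier3, an immediate early gene, stood at 14.9, 379 and 221 CPM in Sham, MI and MI-E, but at 36.3 and 52.2 in MI and MI-E without the mixed cells. Nfkbia, the inhibitor of NF-kappaB, stood at 358, 1073 and 1306 CPM, and without the mixed cells at 348, 524 and 920.4 CPM. The lowest were Dnajb1, a heat shock cochaperone, at 226, 86.7 and 106 CPM, and Jun, a subunit of AP-1, at 201, 83.1 and 201 CPM. Of 10 glucocorticoid-responsive genes 4 were measured, 1 higher and 2 lower in MI than Sham, against 16.1% and 3.05% of all measured genes. The higher member was Cxcr4, at 22.3, 101 and 30.8 CPM, and Sgk1 was within 2-fold, at 70.1, 50.6 and 75.5 CPM. The other 2 were lower. Txnip, the thioredoxin-interacting protein that restrains glucose uptake, stood at 294, 65 and 213 CPM, 4.52-fold lower in MI than Sham (2.82 to 7.71) and 3.27-fold higher in MI-E than MI (1.94 to 5.81). Tsc22d3, the glucocorticoid-induced leucine zipper, stood at 292, 119 and 139.8 CPM.

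The same lists were read within the transcript classes, assigned at 1500 UMIs, with levels from all UMIs and without the mixed cells. Cells with Ccr7 and no Ccl5 numbered 91, 7 and 11 in Sham, MI and MI-E, cells with Ccl5 (with or without Ccr7) 68, 15 and 23, and cells with neither 97, 7 and 35, so the MI values rest on few cells. The share of all 2232 measured genes past 2-fold higher than Sham was 9.99% for MI and 8.74% for MI-E in the Ccr7 class, 12.9% and 10.4% in the Ccl5 class, and 19.3% and 12.5% in the class with neither. In the Ccl5 class the interferon list was higher in both MI and MI-E, with 5 of 8 members past 2-fold in MI (median 1.54) and 6 of 8 in MI-E (median 1.35). In the Ccr7 class it was 5 of 8 in MI (median 1.42) and 3 of 8 in MI-E (median 0.60). In the class with neither gene it was 1 of 8 in MI (median 0.48) and 7 of 8 in MI-E (median 1.45). Ifi27l2a stood in the Ccl5 class at 306, 2931 and 2943 CPM in Sham, MI and MI-E, and in the Ccr7 class at 669, 957 and 981 CPM. The S100 list had medians of -0.68 and -0.0026 for MI and MI-E over Sham in the Ccr7 class, where 2 members were past 2-fold higher and 5 lower in MI, against 21.4% of all measured genes lower. The medians were higher in the Ccl5 class (1.03 and 0.82). In the class with neither gene 13 of 13 members were past 2-fold higher in MI and 12 in MI-E (medians 3.05 and 2.61). S100a6 stood at 81.7 CPM in the Ccr7 class of Sham, had 0 UMIs in that of MI and stood at 64.0 CPM in that of MI-E, against 1023, 1812 and 2001 CPM in the Ccl5 class. The cell cycle list had medians of 3.17 in MI and 1.42 in MI-E over Sham in the Ccl5 class and of 0.00 in MI in the Ccr7 class. In the class with neither gene it was 2.36 in MI, with 11 of 14 members higher, and 0.67 in MI-E. Klf2 stood in the Ccl5 class at 738, 243 and 327 CPM and in the Ccr7 class at 1228, 995 and 1514 CPM. The naive list includes Ccr7. In the Ccr7 class its MI over Sham median was 0.38, with 2 of 12 members higher and 0 lower. It was -0.60 in the Ccl5 class and -0.83 with neither gene, with 4 lower in each (5.33% and 12.2% of all measured genes). The cytotoxic list includes Ccl5. In the Ccl5 class its MI over Sham median was 0.11, with 0 of 10 higher and 1 lower. It was 0.86 there in MI-E, with 5 higher, and 2.03 in MI with neither gene, with 6 higher. Within Sham the Ccl5 class stood above the Ccr7 class for 12 of 13 S100 list members (median 1.90) and 8 of 10 memory genes (median 1.78), against 7.17% of all measured genes.

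Set beside the other lymphocytes, CD8 T cells had some differences in common with CD4 T cells and some with NK cells. The interferon median for MI over Sham was 1.65 in CD8 T cells, 0.03 in CD4 T cells and 1.92 in NK cells, and for MI-E over Sham 1.84, 1.62 and 1.84. The S100 median for MI over Sham was 2.46, 2.17 and 0.27, and that of the naive list -0.88, -2.11 and -0.52. Glycolysis had medians of 1.56, 1.36 and 0.71. The CD4 values for MI come from 9 cells, the measured genes are those of CD8 T cells, and no difference between cell types was tested.

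The genes with the largest ratios, listed or not, ranked where the higher library had 100 CPM or more and the gene in 15% or more of its cells, fell into few kinds. In MI over Sham the 10 highest were Pclaf, Mki67, Birc5, Ube2c and the replication-dependent histone genes Hist1h1b, Hist1h2ae and Hist1h2ap, with Fn1, Chil3 and Thbs1. Hist1h2ap stood at 20.6, 578 and 95.1 CPM in Sham, MI and MI-E; the histone genes of this cluster are near-identical copies, and their counts may be shared among them. Fn1 (fibronectin), Chil3 and Thbs1 (thrombospondin 1), known from macrophages, went from 275, 184 and 267 CPM in MI to 15.6, 25.9 and 25.9 CPM without the mixed cells. Among the 10 lowest, Dusp10, a phosphatase of MAP kinases, stood at 205, 47.0 and 36.4 CPM, 4.36-fold lower in MI (2.50 to 8.30) and 5.63-fold lower in MI-E (3.23 to 10.7). Cct6a, a chaperonin subunit, stood at 936, 321 and 285 CPM, and Tubb2a, a beta-tubulin, at 135, 25.3 and 47.5 CPM. Rflnb, a filamin-binding refilin, stood at 139, 18.1 and 117 CPM, and Ramp3, an accessory protein of calcitonin family receptors, at 106, 32.5 and 159 CPM. The others of the 10 were Txnip, Ccr7, Vps37b, Rab5a and Tprgl.

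Of those, Rflnb, Ramp3, Txnip and Rab5a were also among the 10 highest in MI-E over MI, a comparison that shares the MI library. The others there were Ccl4, Ccl5, Usp3, Ramp1, Ltb and Rora. Ltb, the lymphotoxin beta chain, stood at 115, 137 and 408 CPM in Sham, MI and MI-E, 2.97-fold higher in MI-E than MI (2.07 to 4.37), with 32 of 146 MI-E UMIs in 1 cell. Rora, the nuclear receptor ROR-alpha, stood at 56.9, 86.7 and 235 CPM, and Ramp1, another receptor accessory protein, at 33.8, 28.9 and 101 CPM. Their ratios kept their direction without the mixed cells, with log2 values of 1.54, 1.25 and 1.59. Among the 10 lowest were the cycle and histone genes Pclaf, Birc5, Nusap1, Hist1h1b, Hist1h2ae and Hist1h2ap, with Fn1, Mt1 and Ccl12. Without the mixed cells Ccl12, a chemokine that macrophages express, turned to a log2 ratio of 0.37. In MI-E over Sham the 5 highest were Ly6a, Ifitm3, Slpi, Ier3 and Ccl4. Ifitm3, an antiviral membrane protein, stood at 71.8, 820.0 and 1079.6 CPM, and without the mixed cells at 17.0, 83.0 and 196 CPM, the last 6.80% of its monocyte and macrophage level. Slpi, a protease inhibitor, went from 386 to 35.9 CPM in MI-E without the mixed cells. The 5 lowest were Dusp10, Cct6a, Ccr7, Tubb2a and Tle4, a corepressor at 174, 97.5 and 64.3 CPM.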

How the data were processed

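Single-cell 3′ libraries of CD45-sorted heart leukocytes were counted by the authors with Cell Ranger 5.0.1 on mm10, per the submitters' processing notes; the deposited values are raw UMI counts of 32285 genes in 3 libraries, not normalized. The members and the gene lists were chosen with earlier results of these data known. The limits of 200 genes and 10% mitochondrial UMIs left out 60, 48 and 31 barcodes for genes and 192, 216 and 397 for mitochondrial UMIs in Sham, MI and MI-E. UMIs were summed over cells of a type and scaled to CPM. Doublets were kept, and Scrublet in scanpy 1.11.5 marked them for an alternative: 2, 4 and 2 CD8 T cells, each also a mixed cell. Intervals used scipy 1.17.1, and TMM factors edgeR 4.0.16. Cells were thinned with numpy 2.4.6. B cells had at least 3 UMIs of Cd79a and Cd79b, no CD3 or C1q UMI and under 10 of S100a8 and S100a9. Library totals were 41140109, 98814001 and 104562768 UMIs. The calculations were tested on simulated data.

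Any measured member of the naive, cytotoxic, memory, residency and checkpoint lists could be named, and of other lists the 2 highest and 2 lowest ratios; Isg15, Irf7, Slfn2, Itga4, H2-Q7, Top2a and unmeasured genes were named after their values were seen. Ranked genes exclude mitochondrial, ribosomal, haemoglobin, immunoglobulin, receptor segment, rule and other-lineage marker genes, gene models, and genes under 10% of their level in myeloid or B cells of that library. Alternatives changed the rule, depth, doublets, scaling, pseudocount and low-gene filter; 1 library per group allowed no test. Promoter windows are RefSeq's. The transcript classes use Ccr7 as the homing gene, a choice made after the data were seen, and some list members and ranked genes are not reported here. Barcodes outside the called cells were not analysed here.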

Additional observations from a re-analysis of the deposited data

Results flagged for a closer look

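In 3 gene lists the medians of CD8 T cells and of NK cells had opposite signs and were both at least 0.5 in size. These are median log2 ratios of CPM + 10 in the same libraries, over the genes measured in CD8 T cells. Where 1 of the medians was smaller, signs differed elsewhere too. For MI over Sham the cell cycle list had 2.84 and -0.39, and the migration receptors 1.05 and -0.39. The cytotoxic list had a median of 0.99 in CD8 T cells and of -0.94 in NK cells for MI over Sham, with 5 of 10 members 2-fold higher in CD8 T cells and 5 of 10 lower in NK cells, and of 1.19 and -0.66 for MI-E over Sham, with 6 higher and 2 lower. Over all 2232 measured genes, 359 were higher in CD8 T cells and 152 lower in NK cells for MI over Sham. For MI-E over Sham they were 210 and 91. Without the cycling cells the CD8 median for MI over Sham was 0.57, with 2 members higher and 3 lower. Gzmb stood at 1773 CPM in Sham NK cells, 865 in MI and 1393 in MI-E, against 124, 480.4 and 383 CPM in CD8 T cells, and Ccl4 at 5836, 948 and 1814 against 95.7, 184 and 939.7 CPM. The tissue residency list had medians of 0.51 in CD8 T cells and -0.74 in NK cells for MI over Sham, but 1 of its 6 measured members was 2-fold higher in CD8 T cells and 1 of 6 lower in NK cells. The cell cycle list had medians of -1.76 in CD8 T cells and 0.96 in NK cells for MI-E over MI. There 9 of 14 members were lower in CD8 T cells and 7 of 14 higher in NK cells, against 106 and 142 of 2232 measured genes. The CD8 median was 0.27 without the 10 cycling MI cells and the 3 of MI-E, of the same sign as in NK cells. Since cycle genes chose the cells left out, this is a description. The NK median keeps the cycling NK cells, 1 of 25 in MI and 5 of 43 in MI-E. In NK cells Mki67 stood at 19.5, 8.31 and 151 CPM. With 1 library per group, none of these differences was tested. The NK values rest on 144, 25 and 43 cells.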

How the results depend on the processing

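No paired analysis was possible because each group has 1 library and no comparison has a test. Of 264 recomputed main values, 206 kept their direction and size and 58 moved; the cause was not tested beyond what each alternative removes.

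With every cell thinned to 1500 UMIs before the rule, the CD8 share was 1.63% in Sham, 0.142% in MI (12 cells) and 0.287% in MI-E. The CD8 part of CD8 plus CD4 T cells in Sham was then 85.1%, and the Ccl5 class 29.4% in Sham and 48.5% in MI-E. Genes past 2-fold, higher and lower, were then 628 and 304 between MI and Sham, 399 and 479 between MI-E and MI, and 402 and 164 between MI-E and Sham; list members lower numbered 21 in MI against Sham, 29 in MI-E against MI (24 higher) and 11 in MI-E against Sham. With no C1q UMI allowed, the shares were 1.83%, 0.170% and 0.334% and the cycling share 13.3% in MI and 0% in MI-E; genes lower were 103 in MI against Sham, 208 in MI-E against MI (155 higher) and 46 in MI-E against Sham. List members lower in MI-E than in Sham were 2 with Cd8b1 required and 1 with a single CD3 UMI allowed. Without thinning, the Ccr7 class was 53.1% in Sham and 33.8% in MI-E.

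The mean of per-cell CPM gave 236 genes higher in MI than in Sham and 70 lower in MI-E than in MI. TMM factors gave 203 higher and 184 lower for MI over Sham, with 21 list members lower, and 65 genes and 7 list members lower for MI-E over Sham. With no filter on low genes, 1092 were higher and 296 lower for MI over Sham, with 92 and 14 list members. Between MI-E and MI they were 515 and 659, with 33 list members lower, and between MI-E and Sham 614 and 148, with 7 lower. With CPM + 50 the counts were 200 and 28, 26 and 54, and 101 and 16 in the same order, and list members were 6 higher in MI-E than in MI and 1 lower in MI-E than in Sham.

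The following alternatives were added after seeing the data. Without mixed cells, 28 list members were lower in MI-E than in MI. Without cycling cells, 105 genes were lower in MI than in Sham, and 10 list members were lower in MI-E than in MI and 2 lower in MI-E than in Sham; with measured genes chosen again, the cell cycle median for MI over Sham turned to -0.0037. Depth limits MI most, where 35 cells make 1 UMI worth 3.61 CPM.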

Other observations

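T cell receptor variable segments, which report clonal make-up, were seldom read in this 3′ chemistry. A beta variable segment (Trbv) had a UMI in 46 of 271 CD8 T cells in Sham, 8 of 35 in MI and 10 of 74 in MI-E, over 17, 7 and 8 different segments. The segment seen most often was Trbv12-2 in 9 Sham cells, Trbv26 in 2 MI cells and Trbv13-1 in 2 MI-E cells. Alpha segments (Trav) were seen in 30, 4 and 5 cells. The cycling MI cells could not be sorted by clone at this depth.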
